A study of Mus musculus with 7 samples.

Results

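The Ly6 genes encode small surface proteins, most of them held in the membrane by a glycosylphosphatidylinositol (GPI) anchor. Members were chosen by symbol and are Ly6a, Ly6e, Ly6d, Ly6c1 and Ly6c2. All 5 were found among the 20464 rows of the deposited table. Ly6a encodes Sca-1, the antigen used together with Kit to enrich mouse haematopoietic stem cells. Ly6e encodes Sca-2, also known as thymic shared antigen-1. Ly6d marks early B-lineage commitment among lymphoid progenitors, and Ly6c1 and Ly6c2 encode the Ly6C antigen found on monocytes, endothelium and some lymphocytes. Interferons are known to raise several of these genes, Ly6a among them.

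RNA was sequenced from EML cells, a stem cell factor-dependent mouse progenitor line made from bone marrow with a dominant-negative retinoic acid receptor, able to form blood cells of several lineages. CD34-positive sorted cells (3 libraries) were compared with CD34-negative cells (4 libraries). All libraries carry the labels C57BL/6, bone marrow and postnatal day 14.7, although the source label names the cell line. No treatment is labelled, and only Annexin V-negative cells were sorted. Since 1 line was used and separate cultures are not labelled, each p-value reflects only how far these libraries scatter, and that scatter may be technical. Each library's description also holds a number. It is 3 for replicate 1 of each group, written 3a for the CD34-positive one, and 2 for replicate 2 of each group. It is 4 for CD34-positive replicate 3 and for CD34-negative replicates 3 and 4, the last written 4a. The labels do not say what the added letter means, and libraries were matched here by the number alone.

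Values are FPKM, fragments scaled by transcript length and by mapped fragments, and the sequencing depth is not known. A library had 8606 to 9117 genes at 1 FPKM or more. Ribosomal protein genes took 25.7% to 34.0% of the summed FPKM in the libraries numbered 2 and 3 but 2.19% to 4.03% in those numbered 4, so libraries numbered 4 stood apart in both groups. Kit spanned 91.1 to 311 FPKM over CD34-positive and 44.7 to 522 FPKM over CD34-negative libraries, whereas no B cell, T cell or neutrophil marker on the lists reached the minimum for testing. Cd34, the sorted marker, spanned 147 to 256 FPKM over CD34-positive and 2.67 to 91.8 FPKM over CD34-negative libraries, with CD34-negative replicate 1 at the top of that group.

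Only Ly6c1 and Ly6c2 had a promoter in the RefSeq table used here (2 of 5 members). They are shown because both genes encode the Ly6C antigen and have nearly the same transcript. Each window runs from 250 bases before to 50 bases after the gene's start. Capitals mark matches to the letters of a TATA, a Runx or an ETS motif, wherever they lie in the window.
Ly6c1: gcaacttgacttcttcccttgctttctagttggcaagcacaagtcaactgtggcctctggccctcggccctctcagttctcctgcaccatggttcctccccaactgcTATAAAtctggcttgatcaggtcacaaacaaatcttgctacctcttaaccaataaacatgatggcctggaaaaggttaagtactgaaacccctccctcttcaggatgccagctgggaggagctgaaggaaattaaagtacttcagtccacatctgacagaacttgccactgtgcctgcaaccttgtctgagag
Ly6c2: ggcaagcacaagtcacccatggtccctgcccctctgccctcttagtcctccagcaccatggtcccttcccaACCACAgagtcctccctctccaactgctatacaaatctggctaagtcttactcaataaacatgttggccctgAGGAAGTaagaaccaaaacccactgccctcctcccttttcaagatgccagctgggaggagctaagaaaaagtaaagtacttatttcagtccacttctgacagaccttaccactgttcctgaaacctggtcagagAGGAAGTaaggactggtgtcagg
The Ly6c1 window lies on the minus strand at chr15:75048788-75049087 and the Ly6c2 window on the minus strand at chr15:75111922-75112221, both in GRCm38.p6. Over 266 aligned bases 208 were identical, which is 78.2%. The motifs named next were searched on both strands, and none of the hits overlapped another. TATAAA was found in the Ly6c1 window, at -143 from the start, and anywhere in the window in 14.2% of the 27025 promoters of the table. The Runx motif TGTGGT was found in the Ly6c2 window, at -179 and read on the opposite strand, and in 16.9% of promoters. AGGAAGT, an ETS motif, was found 2 times in the Ly6c2 window, and in 9.57% of promoters. Neither window held the interferon-stimulated response element, searched as GAAA, any 2 bases and GAAA again (3.49% of promoters), the STAT site TTCNNNGAA (8.47%) or the GATA site AGATAA (11.4%). These matches describe letters only.

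Ly6a had the largest difference of the members on the log2(FPKM + 1) scale. With a pseudocount of 0.1 it was 3.74, against 3.83 for Ly6c1. In sorted pools such as these, fewer cells of a type and less RNA per cell cannot be told apart. The Ly6a level was 132, 208 and 143 FPKM in CD34-positive replicates 1, 2 and 3, against 73.2, 11.9, 8.66 and 2.41 FPKM in CD34-negative replicates 1, 2, 3 and 4. Every CD34-positive library therefore lay above every CD34-negative one, and CD34-negative replicate 1 was the closest. The same library also held the most Cd34 of its group. Ranked among the 20142 unique rows of each library, a measure that does not depend on scaling, Ly6a stood at rank 600, 457 and 208 in CD34-positive replicates 1, 2 and 3 and at rank 1168, 4606, 5508 and 8086 in CD34-negative replicates 1, 2, 3 and 4.

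On the log2(FPKM + 1) scale, which understates the change of low genes, the Ly6a difference of CD34-positive minus CD34-negative means was 3.57 (SE 0.89), the size rank 3 of all genes in the upward direction. It did not pass limma's test with Benjamini-Hochberg adjustment over 9259 tested genes (adjusted p = 0.606; 0.0931 with the label number as a block). The exact two-sided permutation test over libraries gave p = 0.0571, the smallest that 3 against 4 libraries allow. Here and below, that test exchanges all libraries freely and takes no account of the label numbers. Within equal numbers the difference was 0.84 for number 3, 4.02 for number 2 and 4.64 for number 4. Taken apart, number 4 gave 3.89 against CD34-negative replicate 3 and 5.39 against CD34-negative replicate 4. Ly6a was thus higher in all 3 comparisons, and in number 3 the FPKM ratio was 1.81, against 17.5 in number 2. With the block, the adjusted p in limma was 0.0142 once CD34-positive replicate 1 was left out and 0.0146 once its CD34-negative partner was. These 2 fits are 1 result, with the same difference of 4.38, since either one takes the number 3 pair out of the comparison. That pair had the smallest Ly6a difference, 0.84. The other such fits gave 0.0572 to 0.531.

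**Figure D1:**
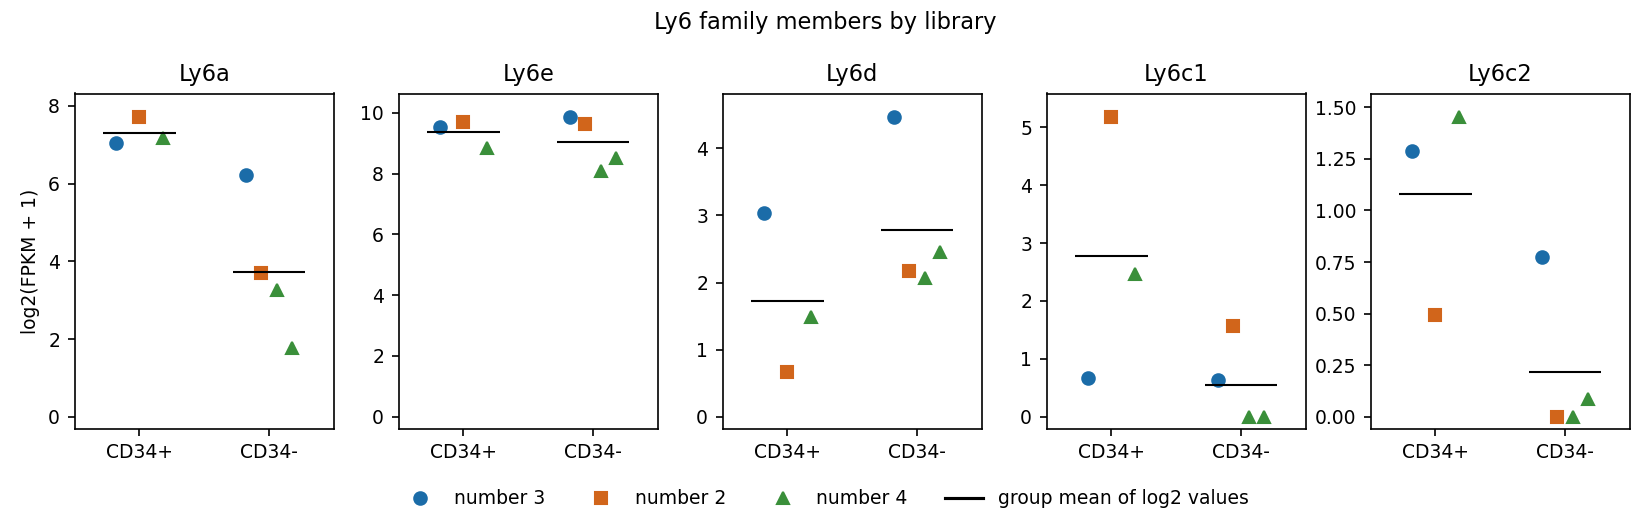
Levels of the 5 Ly6 genes as log2(FPKM + 1), with 1 panel per gene and its own vertical axis. Each point is a library (CD34-positive left, CD34-negative right), the shape gives the label number and the line is the group mean. The 3 CD34-positive libraries of Ly6a sit above all 4 CD34-negative ones, and the groups overlap in the other panels.

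Ly6e was by far the most abundant member. It reached 751, 839 and 455 FPKM in CD34-positive replicates 1, 2 and 3, and 923, 799, 272 and 369 FPKM in CD34-negative replicates 1, 2, 3 and 4. Both groups overlapped, and the 3 libraries numbered 4 were the lowest, whichever group they belonged to. Even so, Ly6e ranked 46 to 141 in CD34-positive and 47 to 137 in CD34-negative libraries. The mean was 681 ± 201 FPKM over CD34-positive libraries (SD, n = 3) and 591 ± 319 FPKM over CD34-negative ones (SD, n = 4). The difference was 0.34 (SE 0.73; limma adjusted p = 1.0), and the exact permutation p was 0.514. Its direction differed between numbers, at -0.30 for number 3, 0.07 for number 2 and 0.52 for number 4, and it turned to -0.02 with quantile normalization and to -0.11 without the libraries numbered 4.

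The share of Ly6a within the family differed between the groups. FPKM are per length, so the genes can be set beside each other. Ly6a stood at 17.6%, 24.8% and 31.3% of the Ly6e level in CD34-positive replicates 1, 2 and 3. In CD34-negative replicates 1, 2, 3 and 4 it stood at 7.93%, 1.49%, 3.18% and 0.655%. Of the summed FPKM of the 5 genes, Ly6e made up 75.1% to 84.1% in CD34-positive and 90.6% to 98.1% in CD34-negative libraries. The groups did not overlap in either measure, and both are ratios within a library that scaling cannot change. They are nearly the same measure, because Ly6a and Ly6e make up almost all of the sum. Both restate the Ly6a difference given above.

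Ly6d was the tested member whose values were lower in CD34-positive cells within every number. Its level was 7.24, 0.58 and 1.81 FPKM in CD34-positive replicates 1, 2 and 3, against 21.0, 3.52, 3.18 and 4.49 FPKM in CD34-negative replicates 1, 2, 3 and 4. Both libraries numbered 3 were the highest of their group, so the groups overlapped although each number showed the same direction. The differences were -1.42, -1.51 and -0.77 for numbers 3, 2 and 4. Over the groups the difference was -1.06 (SE 0.72) and did not pass (limma adjusted p = 1.0; exact permutation p = 0.343). With the block it was -1.19 (SE 0.21; limma adjusted p = 0.0931), and without CD34-negative replicate 3 it passed with the block (adjusted p = 0.0436, against 0.0913 to 0.531 in the other such fits). Of all tested genes, 25.0% were lower within all 3 numbers.

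Ly6c1 was high in a single library. It stood at 0.59, 35.1 and 4.54 FPKM in CD34-positive replicates 1, 2 and 3, against 0.55 and 1.97 FPKM in CD34-negative replicates 1 and 2, and was listed at 0 in CD34-negative replicates 3 and 4. The number 3 libraries were almost alike, and the difference came from numbers 2 and 4 (0.04, 3.60 and 2.47 in the order of numbers 3, 2 and 4). Over the groups it was 2.22 (SE 0.93; limma adjusted p = 0.853; exact permutation p = 0.114), and it was 1.02 without CD34-positive replicate 2 and 3.83 with a pseudocount of 0.1. With the block it was 2.08 (limma adjusted p = 0.111). That fit passed in limma without either replicate 1 library (adjusted p = 0.0130 and 0.0136, against 0.0861 to 0.531 in the others). Both fits are 1 result, since either one takes the number 3 pair out of the comparison, where the difference was 0.04.

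Ly6c2 was near the floor of the table. It stood at 1.45, 0.41 and 1.73 FPKM in CD34-positive replicates 1, 2 and 3, with 0.71 and 0.06 FPKM for CD34-negative replicates 1 and 4, and was listed at 0 in CD34-negative replicates 2 and 3. It missed the minimum of 1 FPKM in at least 3 libraries and was left out of the fit (exact permutation p = 0.114, log2 difference 0.86). Its highest library was CD34-positive replicate 3, whereas CD34-positive replicate 2, the highest for Ly6c1, was its lowest among CD34-positive libraries.

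The 2 Ly6C genes and Ly6a have similar transcripts, which bears on how reads could be assigned to them. Between the longest coding GENCODE transcripts of Ly6c1 and Ly6c2, 802 of 822 aligned bases were identical (97.6%), and Ly6a was 86.2% identical to Ly6c1. Of all stretches of 50 bases, 36.7% of those in Ly6c1 and 33.0% of those in Ly6c2 also occurred in a transcript of another gene. In Ly6a 91 of 906 did, and no such stretch was found for Ly6e or Ly6d. How the authors treated reads with several matches is not stated in any source here, and the split between Ly6c1 and Ly6c2 is uncertain. Ly6c1 stood at 16.9% of the Ly6a level in CD34-positive and at 16.5% in CD34-negative replicate 2. The FPKM ratio of CD34-positive to CD34-negative replicate 2 was therefore alike, 17.8 for Ly6c1 and 17.5 for Ly6a. In the replicate 1 libraries Ly6c1 stood at 0.45% and 0.75% of the Ly6a level. Whether reads from Ly6a were counted for Ly6c1 was not tested.

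Of the 4 members that could be tested, none passed an adjusted p of 0.05 in limma, where no gene of 9259 did (0.0% in each direction). At an unadjusted p under 0.05, Ly6a and Ly6c1 were higher (background 3.38% of genes) and no member was lower (background 2.27%). With the block, the same 2 were higher (background 12.8%) and Ly6d was lower (background 9.14%). Groups that do not overlap, as for Ly6a, were found in 2.67% of genes in that direction and in 3.01% in the other. Ly6a, Ly6c1 and the untested Ly6c2 were higher within all 3 numbers, as were 29.0% of tested genes.

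**Figure D2:**
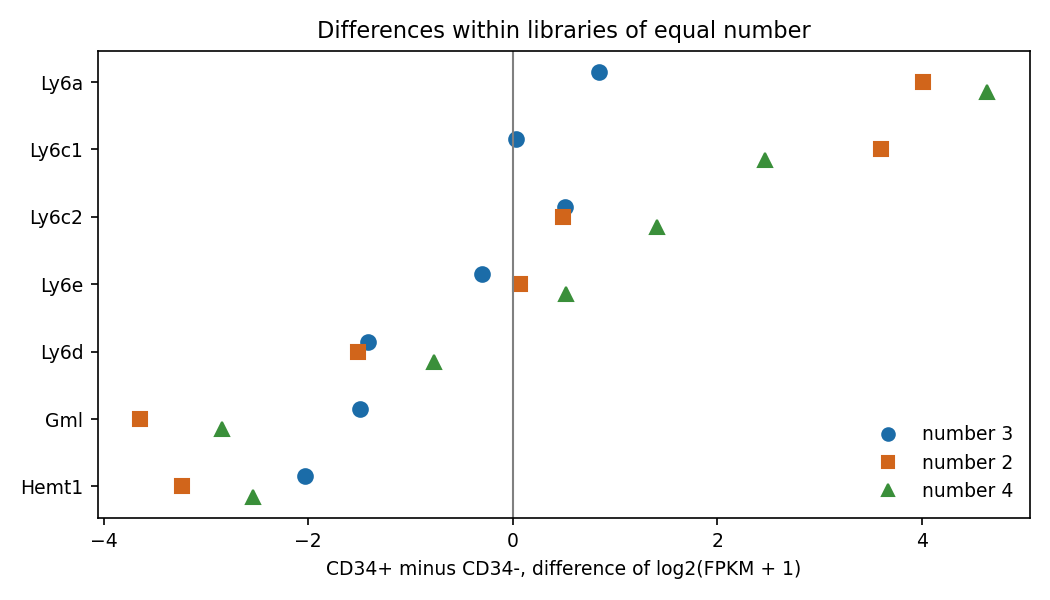
Difference of CD34-positive minus CD34-negative log2(FPKM + 1) within libraries of equal label number, for the 5 Ly6 genes and for Gml and Hemt1 of the same cluster. For number 4 the mean of CD34-negative replicates 3 and 4 was used. Ly6a, Ly6c1 and Ly6c2 are above 0, Ly6d, Gml and Hemt1 below 0 for all 3 numbers, and Ly6e lies on both sides.

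The wider Ly6/uPAR superfamily shares the three-finger fold, and few of its members reached the minimum for testing in these cells. Of 41 listed relatives 35 were in the table, 19 were above 0 in some library and 16 were listed at 0 throughout (among them Psca, Lynx1 and Gpihbp1, which holds lipoprotein lipase on capillaries). A listed 0 may be a failed estimate, since the broadly used kinase gene Ptk2 was listed at 0 in all 7 libraries too. Only 5 relatives reached the minimum for testing. The other relatives above 0 were Ly6g5b, with 1.43 FPKM at most, Bambi, a pseudoreceptor of the TGF-beta family, with 1.30 FPKM at most, and Ly6i, Ly6k, 2010109I03Rik, Ly6g6c, Ly6g6d, Ly6g6e, Lypd1, Cd59b, Cd177, Spaca4, Pate2 and Pate4, all under 1 FPKM in every library. The 5 tested were Gml, Hemt1, Lypd6b, Plaur and Cd59a. At an unadjusted p under 0.05 in limma, 1 of the 5 was higher (background 3.38%) and 2 were lower (background 2.27%), and none passed after adjustment. Their median difference was 0.25, against 0.09 over all tested genes.

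The 2 lower relatives, Gml and Hemt1, lie next to each other within the cluster. Hemt1, named for haematopoietic cell transcripts and called Gml2 in RefSeq, stood at 1.03, 0.81 and 1.38 FPKM in CD34-positive replicates 1, 2 and 3, against 7.31, 16.0, 10.6 and 15.4 FPKM in CD34-negative replicates 1, 2, 3 and 4. No library of one group reached the other. Its difference of -2.64 (SE 0.33) had the smallest p of all 9259 genes in limma, both in the fit of the 2 groups (adjusted p = 0.256) and with the block (adjusted p = 0.0767), and without the block it passed once CD34-negative replicate 1 was left out (adjusted p = 0.0444, against 0.239 to 0.999 for other libraries). With the block it passed in limma once CD34-positive replicate 1 (adjusted p = 0.0125), CD34-negative replicate 1 (0.0124) or CD34-negative replicate 3 (0.0360) was left out. The first 2 of these fits are 1 result, since both take the number 3 pair out of the comparison. The other libraries gave 0.136 to 0.531. The Hemt1 difference was -2.03, -3.23 and -2.54 for numbers 3, 2 and 4.

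Gml, a GPI-anchored relative of the Ly6 proteins, had values of 1.26, 0.87 and 0.60 FPKM over the CD34-positive replicates, against 5.37, 22.3, 9.03 and 12.1 FPKM over the CD34-negative ones. These groups did not overlap either. The difference was -2.64 (SE 0.43; limma adjusted p = 0.387; 0.0931 with the block, where leaving out 1 library gave 0.0124 to 0.531), with -1.49, -3.64 and -2.84 for numbers 3, 2 and 4. Gml and Hemt1 transcripts were 86.4% identical over the aligned part and 18.6% of the 50-base stretches of Gml and 25.0% of those of Hemt1 also occurred in a transcript of another gene, so their split is uncertain.

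With all 7 libraries, none of the 3 other tested relatives passed after adjustment. Lypd6b, a close relative of a nicotinic receptor modulator, stood at 1.49, 0.92 and 1.36 FPKM in CD34-positive cells, against 1.21 FPKM in CD34-negative replicate 1 and 0.03 to 0.09 FPKM in CD34-negative replicates 2, 3 and 4. Its difference was 0.83 (SE 0.33; limma adjusted p = 0.796; 0.108 with the block), and 2.41 with a pseudocount of 0.1. With the block it passed in limma without either replicate 1 library (adjusted p = 0.0391 for the CD34-positive and 0.0405 for the CD34-negative one). Both fits are 1 result, since either one takes the number 3 pair out of the comparison. The other such fits gave 0.0821 to 0.531. Plaur, the urokinase receptor, had a mean of 6.46 ± 0.91 FPKM over CD34-positive libraries (SD, n = 3) and 5.25 ± 3.37 FPKM over CD34-negative ones (SD, n = 4). Cd59a, which blocks the membrane attack complex of complement, had 18.6 ± 6.70 FPKM over CD34-positive libraries and 15.2 ± 4.81 FPKM over CD34-negative ones. The groups overlapped for both genes, and neither passed (limma adjusted p = 1.0 for each).

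In chromosome order, taken from RefSeq for GRCm38.p6, the tested cluster genes with negative differences came before those with positive ones. This order was not tested. From Psca to Gpihbp1 the cluster holds 29 protein-coding genes, 20 of them in the table and 6 tested. Starting at the Psca end, Ly6d, Gml and Hemt1 had differences of -1.06, -2.64 and -2.64, Ly6e followed with 0.34, and Ly6a and Ly6c1 came last with 3.57 and 2.22. In the flanks, 4 of 10 genes on the Psca side and 5 of 10 on the Gpihbp1 side were tested. In none of these 9 did the groups separate, and their differences lay between -0.69 (Slc45a4, SE 0.49) and 0.72 (Pycrl, SE 0.88). With the block, however, Slc45a4 had a difference of -0.89 (SE 0.16; limma adjusted p = 0.0931, the value Ly6d also had), and it was lower within all 3 numbers, at -0.62, -1.04 and -0.98 for numbers 3, 2 and 4. Over the 6 cluster genes, 1 had higher groups that did not overlap (background 2.67%) and 2 had lower ones (background 3.01%).

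**Figure D3:**
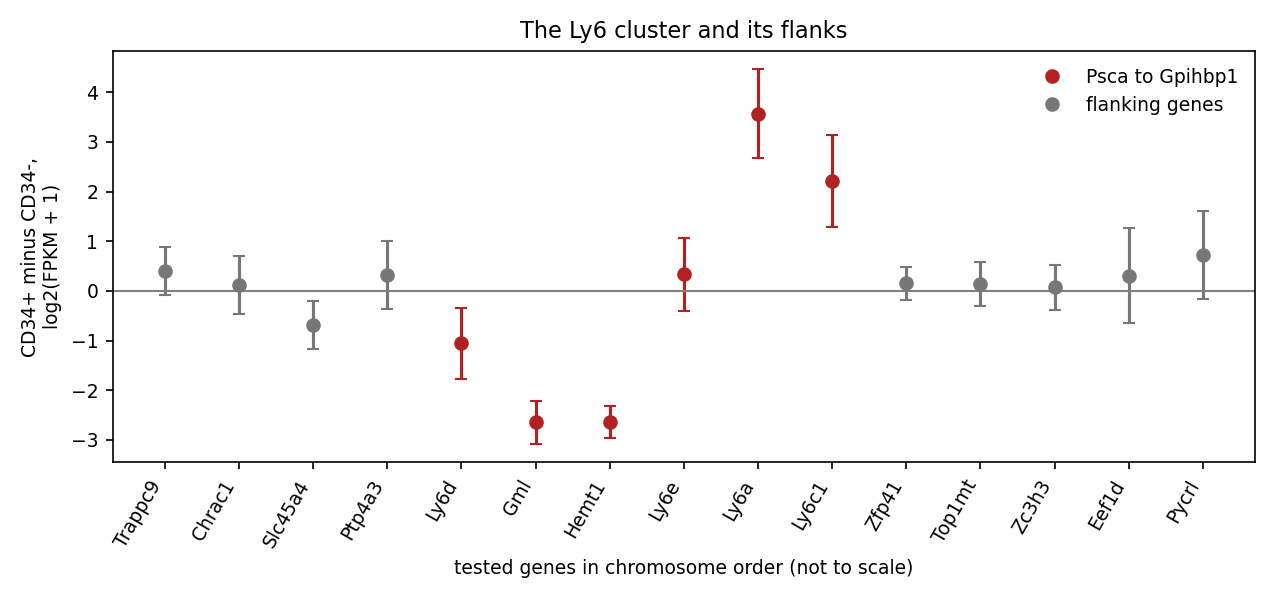
Difference of CD34-positive minus CD34-negative mean log2(FPKM + 1) for each tested gene of the Ly6 cluster and of its flanks, in chromosome order and not to distance. Bars are the moderated standard error from limma. Ly6d, Gml and Hemt1 lie below 0, Ly6a and Ly6c1 above, and the 9 flanking genes between -0.69 and 0.72.

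Among 7247 tested genes averaging at least 5 FPKM, the profile most like that of Ly6a over the 7 libraries was that of S100a4, which encodes a calcium-binding protein. Likeness was the root mean square difference of log2 values after each gene's mean was taken off, and the values are a description of libraries that share label numbers. It was 0.67 for S100a4, 0.68 for the glucuronosyltransferase gene Ugt1a7c, 0.71 for Cd34, 0.72 for the protease inhibitor gene Serpina3g and 0.73 for Bcl3, a nuclear cofactor of NF-kappaB, against a median of 2.10 over all candidates. These 5 were picked as the smallest values, so lying below that median was given by the choice. In number 3 all 5 differed by less than the 0.84 of Ly6a. The values were 0.68 for S100a4, 0.34 for Ugt1a7c, 0.68 for Cd34, 0.52 for Serpina3g and 0.31 for Bcl3. Ly6a stood at 81.1% to 92.9% of the Cd34 level in CD34-positive libraries, and between 40.1% and 324% of it in CD34-negative ones. The genes most like Ly6e were Enoph1 of methionine salvage (0.083), Rae1 of mRNA export (0.11) and the zinc finger gene Fiz1 (0.12), with a median of 0.61 over all candidates.

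**Figure D4:**
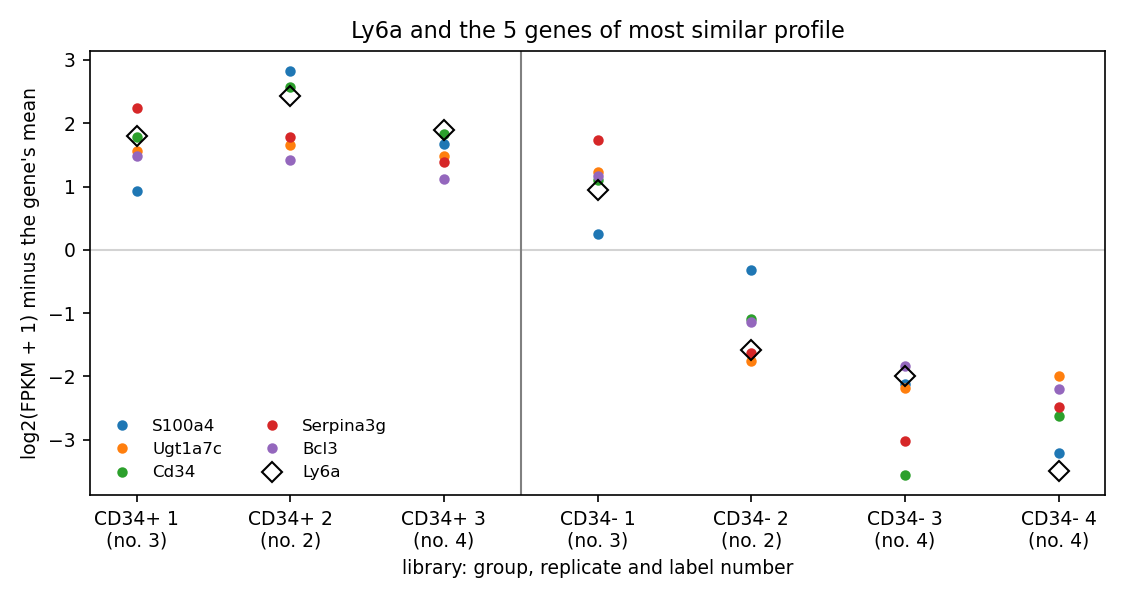
Log2(FPKM + 1) minus each gene's own mean over 7 libraries, for Ly6a (diamonds) and the 5 genes with the smallest root mean square difference from it. Libraries stand by group, replicate and label number. All 6 genes are above their mean in the 3 CD34-positive libraries and in CD34-negative replicate 1, and below it in CD34-negative replicates 2, 3 and 4.

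Surface markers that are sorted beside Sca-1 were uneven, some higher in CD34-positive cells and others without a common direction. Of 16 listed, 11 were tested, and at an unadjusted p under 0.05 in limma 3 were higher (background 3.38%), 0 lower (background 2.27%) and 0 passed after adjustment. With the block 4 were higher (background 12.8%) and 0 lower (background 9.14%). Within all 3 numbers 6 of the 11 were higher (background 29.0%) and 0 lower (background 25.0%). The 3 called without the block were Cd34, Fcgr2b and Cd48. Cd34, the marker the cells were sorted on, is in each of these counts, and the sort itself favours its being higher. Fcgr2b, an inhibitory Fc receptor, had 51.0 ± 7.21 FPKM over CD34-positive libraries (SD, n = 3) and 20.5 ± 11.4 FPKM over CD34-negative ones (SD, n = 4). Cd48, a SLAM-family receptor present on committed progenitors, had 158 ± 3.51 FPKM over CD34-positive libraries and 65.6 ± 47.3 FPKM over CD34-negative ones. Of the 11 tested, only these 3, which were picked by their smallest p, had groups that did not overlap (background 2.67% higher, 3.01% lower). Thy1 was listed at 0 in every library.

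Interferon response genes were examined because interferon raises Ly6a. Of 28 listed, 15 were tested, of which limma gave 3 higher (background 3.38%) and 0 lower (background 2.27%) at unadjusted p under 0.05, with none passing after adjustment. With the block 8 were higher (background 12.8%) and 0 lower (background 9.14%). Within all 3 numbers 9 of the 15 were higher (background 29.0%) and 0 lower (background 25.0%). The median difference of the 15 was 0.67, against 0.09 over all genes. Irf1, a transcription factor of the interferon-gamma response, stood at 13.8, 9.999 and 14.9 FPKM in CD34-positive replicates 1, 2 and 3, against 9.03, 3.30, 4.27 and 3.13 FPKM in CD34-negative replicates 1, 2, 3 and 4. All CD34-positive libraries lay above all CD34-negative ones, with a difference of 1.31 (SE 0.37; limma adjusted p = 0.647; 0.0931 with the block). The GTPase gene Igtp had a mean of 3.33 FPKM over CD34-positive libraries and 1.46 FPKM over CD34-negative ones. The RNA sensor gene Ddx58 had 2.49 FPKM over CD34-positive libraries and 0.89 FPKM over CD34-negative ones, a difference of 0.91 that was 1.63 with a pseudocount of 0.1. Ifit3, Ifi44 and Gbp2 were listed at 0 throughout.

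The enzymes that build the GPI anchor and attach it to proteins such as Sca-1 gave no call in the fit of the 2 groups. Of 30 listed, 28 were tested, and at an unadjusted p under 0.05 none was higher (background 3.38%) or lower (background 2.27%) in limma. With the block 1 was higher, Pgap2 (background 12.8%), and 5 were lower (background 9.14%), with none passing after adjustment. The 5 were Pgap3, Pigo, Pigq, Pigs and Pigt, named after their values were seen, with block differences of -0.41, -0.45, -0.70, -0.39 and -0.48 in that order. Within all 3 numbers 4 of the 28 tested genes were higher (background 29.0%) and 11 lower (background 25.0%). The median difference of the 28 was -0.04. The smallest p was that of Pigx, a subunit of the first mannosyltransferase, at 36.1 ± 16.8 FPKM over CD34-positive libraries (SD, n = 3) and 19.3 ± 6.64 FPKM over CD34-negative ones (SD, n = 4), with a difference of 0.85 (SE 0.43; limma adjusted p = 1.0). Pgap2, which remodels the lipid of the anchor, had 25.8 FPKM over CD34-positive libraries and 14.6 FPKM over CD34-negative ones. The dolichol mannose synthase gene Dpm1 had 19.5 FPKM over CD34-positive libraries and 15.6 FPKM over CD34-negative ones.

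Markers of cell types that carry Ly6 antigens were mostly near or at 0. B cell markers, beside Ly6d, summed to 1.13 to 2.28 FPKM over CD34-positive libraries and 0.40 to 1.83 FPKM over CD34-negative ones, with 3 of 8 (Ms4a1, Ebf1 and Pax5) listed at 0. T cell markers summed to 0.86 to 2.64 FPKM over CD34-positive libraries and 0.77 to 2.003 FPKM over CD34-negative ones, with Cd3e and Cd8a at 0. Neutrophil markers stayed under 1 FPKM in sum in every library, with S100a8 and S100a9 at 0. Beside Ly6a and Ly6c1, endothelial markers summed to 59.5 to 101 FPKM over CD34-positive libraries and 37.5 to 83.0 FPKM over CD34-negative ones, nearly all of it Pecam1, with 4 of 8 (Kdr, Tek, Emcn and Cldn5) at 0. Beside Ly6c2, monocyte and macrophage markers summed to 24.6 to 39.6 FPKM over CD34-positive libraries and 5.82 to 59.2 FPKM over CD34-negative ones, with Cd14 at 0. The 2 tested went different ways, with differences of 2.14 (SE 0.80) for Lyz2 and -0.25 (SE 0.96) for Ccr2, and neither passed after adjustment. Lyz2 was higher within all 3 numbers (background 29.0%). Most of the sum of 59.2 FPKM was Ccr2 in CD34-negative replicate 3, at 54.0 FPKM. Stromal markers, of which 6 of 8 were at 0, summed to 38.9 to 62.9 FPKM over CD34-positive libraries and 16.6 to 53.3 FPKM over CD34-negative ones, nearly all of it Pdgfrb. Hepatocyte markers, with Alb, Ttr, Fgb and Serpina1a at 0, summed to 149 to 197 FPKM over CD34-positive libraries and 35.1 to 164 FPKM over CD34-negative ones, nearly all of it Trf, the transferrin gene. The part of these markers in the Ly6 differences was not tested.

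Most erythroid and mast cell markers had lower values in CD34-positive cells, opposite to Ly6a and in the direction of Gml and Hemt1. Erythroid markers summed to 57.4 to 649 FPKM over CD34-positive libraries and 146 to 2087 FPKM over CD34-negative ones, and 6 of the 7 tested were lower with no overlap (background 3.01%). The exception, the globin gene Hbb-b1, made up much of the sum in several libraries and differed in direction between numbers. Mast cell markers summed to 2478 to 3327 FPKM over CD34-positive libraries and 4074 to 18482 FPKM over CD34-negative ones, and 5 of the 7 tested were lower with no overlap (background 3.01%). The mast cell carboxypeptidase gene Cpa3 went the other way, at 1936 to 3044 FPKM over CD34-positive libraries and 451 to 3134 FPKM over CD34-negative ones. Its difference was positive within all 3 numbers when the CD34-negative libraries numbered 4 were averaged. Taken apart, number 4 gave -0.04 for Cpa3 against CD34-negative replicate 3 and 2.28 against CD34-negative replicate 4. None of the erythroid and mast cell markers passed after adjustment in limma, and their part in the Ly6, Gml and Hemt1 differences was not tested.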

How the data were processed

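RNA-seq values of 7 libraries were used, 3 CD34-positive and 4 CD34-negative, grouped by title (a genotype label of the CD34-negative libraries reads CD43). The deposited FPKM values were made by the authors. The submitters' processing notes name TopHat2, TopHat, Cuffdiff and the builds mm9 and mm10, without roles. Annotation, strand setting and the treatment of multiply matching reads are not stated in any source here. Since both builds are named, gene coordinates from the files are not given, and RefSeq (GRCm38.p6) served for promoters, synonyms and gene order.

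Of 20464 rows, 322 with 105 repeated symbols were left out. The 9259 genes that reached 1 FPKM in 3 or more libraries entered limma (version 3.58.1, R 4.3.3) as log2(FPKM + 1), with its trend option. Tests were two-sided, p-values were adjusted by Benjamini-Hochberg over all 9259, and the threshold was 0.05. The script was tested on simulated data. Members and lists were chosen with earlier results of these data known. Named genes are the 5 members, detected relatives, the 3 smallest p of each other list, the cluster and its flanks, and the 5 and 3 profiles most like Ly6a and Ly6e. Kit and single cell type markers were named after their values were seen. GENCODE M21 transcripts were aligned with Biopython 1.88.

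Deviations from the group means correlated at 0.70 to 0.92 between libraries of equal label number and at -0.86 to 0.37 between others. The numbers were therefore treated as pairing the libraries, in a second fit that has the number as a block. For number 4 such pairing cannot be told apart from the kind of library. Alternatives varied pseudocount, filter, scaling, trend, block and the libraries used.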

Additional observations from a re-analysis of the deposited data

Results flagged for a closer look

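Among 35 examined genes, 4 had a single CD34-negative library standing well away from the rest of its group in log2(FPKM + 1), and each time it was CD34-negative replicate 1. Chance flags about 1 in 20 groups of independent normal values, and these genes are not independent. The gap to the nearest library took up 0.837 of the group's range for Ly6d (21.0 FPKM in that library), 0.891 for Ly6c2 (0.71 FPKM), 0.926 for Lypd6b (1.21 FPKM) and 0.874 for Ugt1a7c, whose profile was among those most like Ly6a. The same library held the most Ly6a and Cd34 of its group, 73.2 and 91.8 FPKM.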

How the results depend on the processing

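Differences are CD34-positive minus CD34-negative, and the cause of each change was not tested. Ly6a, Ly6c1, Ly6d, Gml and Hemt1 kept their direction in every alternative run. Leaving out 1 library, with or without the replicate block, gave Ly6a 2.43 to 4.40, Ly6c1 1.02 to 3.27, Ly6d -1.71 to -0.50 and Ly6e -0.11 to 0.61. For Ly6c2, which was not run with the block, leaving out 1 library gave 0.68 to 1.16. With all 7 libraries the replicate block changed no adjusted call of a member (Ly6a 3.32, Ly6e 0.14, Ly6d -1.19, Ly6c1 2.08). The block without a replicate 1 library of either group passed for Ly6a (4.38) and Ly6c1 (2.96), and without CD34-negative replicate 3 for Ly6d (-1.30). Leaving out either replicate 1 library takes the same number 3 pair out of the comparison, so this is 1 result per gene. Ly6e turned to -0.015 with quantile normalization and to -0.11 without the 3 libraries numbered 4, where Enoph1 and Rae1 turned to -0.0052 and -0.068, against up to 0.65 and 0.72 without 1 library. With pseudocount 0.1, Ly6c2 moved to 2.57, Ly6c1 to 3.83, Lypd6b to 2.41 and Ddx58 to 1.63. A filter of 5 FPKM leaves no value for Ly6d, Ly6c1 or Ly6c2, and Ly6c2 missed the minimum in the fits.

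At an adjusted p of 0.05 in limma 0 genes were called. Leaving out 1 library gave 0 to 7 higher and 0 to 3 lower. With the block the counts were 230 higher and 81 lower when CD34-positive replicate 1 was left out and 231 and 81 when its CD34-negative partner was. Both fits take the number 3 pair out of the comparison, so they are 1 result. The counts were 32 and 125 when CD34-negative replicate 3 was left out, and 1 and 0 for CD34-positive replicate 3. At an unadjusted p under 0.05, 313 were higher and 210 lower, and 138 to 579 and 116 to 232 without 1 library. The counts were 498 and 330 without a filter, 1188 and 846 with the replicate block, and 1089 and 856 with the block by title number. With the block and without CD34-positive replicates 1, 2 and 3 in turn they were 1111 and 712, 478 and 404, and 514 and 327. Without CD34-negative replicates 1, 2, 3 and 4 in turn they were 1112 and 711, 484 and 403, 1514 and 1106, and 1090 and 854. Higher genes numbered 182 with a filter of 5 FPKM, 203 with CD34-negative replicates 3 and 4 averaged, and 39 without the libraries numbered 4, and lower ones 132 without those numbered 3. Depth is unknown, so the counting error of values near 0 cannot be given.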
